A study of Mus musculus with 8 samples.

Results

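Mouse genome windows around Sorbs2, Scara5 and Pcolce2 each fully contained 1 long region listed for trimethylation of histone H3 at lysine 36 (H3K36me3). These 3 regions lost more signal than nearly all other listed H3K36me3 regions in cells that expressed a mutant histone. The windows were chosen by that loss, the H3K36me3 ratio of mutant over wild-type cells. The members are the listed regions (rows) of 3 peak tables that overlap by at least 1 bp the mm9 windows 46550000 to 46950000 of chromosome 8 (Sorbs2), 66200000 to 66450000 of chromosome 14 (Scara5) and 95500000 to 95650000 of chromosome 9 (Pcolce2). Of 7689 rows in all, 6 are members: 5 of 4999 H3K36me3 rows, 1 of 1691 H3K36me2 rows and 0 of 999 H3K27me3 rows. The H3K36me3 ratios picked the windows, so those ratios and their ranks are given as a description, with no test. The tables name no genes, and the link from window to gene is that of the window definition.

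The libraries came from C3H10T1/2, a line of mesenchymal progenitor cells from C3H mouse embryos. The cells stably expressed histone H3.3 tagged with FLAG-HA, as wild type (WT) or as a mutant (K36M) whose lysine 36 is a methionine, at passages 10 to 15. Each of the 3 marks was precipitated once per genotype from micrococcal nuclease-cut chromatin, to which Drosophila S2 chromatin equal to 5% of the mouse chromatin had been added as a spike-in. With 1 library per mark and genotype, no difference has a replicate check and none was tested. Whether a line was a clone or a pool is not given in the sources used here, and the peak tables hold no expression values against which the cell type or the transgene could be checked.

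H3K36me3 is laid down by SETD2, which travels with elongating RNA polymerase II, so the mark fills the bodies of transcribed genes and is poor at their promoters. H3K36me2 is laid down mainly by the NSD enzymes, both in genes and between them, and H3K27me3 is the mark of Polycomb repressive complex 2 on silenced chromatin. H3 carrying K36M inhibits H3K36 methyltransferases and so lowers the mark on histones that do not carry the mutation. The genes have different roles. Sorbs2 encodes an adaptor protein with SH3 domains that sits on actin stress fibres and at the Z-discs of muscle. Scara5 encodes a class A scavenger receptor that binds ferritin, and Pcolce2 encodes a secreted protein that enhances the cleavage of the C-propeptide from fibrillar procollagens.

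The sequences around the annotated starts are shown because both H3K36 marks were listed inside the Sorbs2 window, each over another stretch, and Sorbs2 has several annotated starts. Pcolce2 is shown beside it as the other gene with an entry. Each is the RefSeq window on GRCm38.p6 from 250 bases before to 50 bases after a start, written 5′ to 3′ on the plus strand of the build, with CG dinucleotides in capitals. The table of such windows matched 2 of the 3 genes, with 3 starts for Sorbs2 and 1 for Pcolce2. Scara5 had no entry. The windows lie at chr8:45507538-45507837, chr8:45627501-45627800 and chr8:45661743-45662042 for Sorbs2 and at chr9:95637378-95637677 for Pcolce2. These positions belong to another build than the peaks and cannot be laid on them.
Sorbs2 start 1: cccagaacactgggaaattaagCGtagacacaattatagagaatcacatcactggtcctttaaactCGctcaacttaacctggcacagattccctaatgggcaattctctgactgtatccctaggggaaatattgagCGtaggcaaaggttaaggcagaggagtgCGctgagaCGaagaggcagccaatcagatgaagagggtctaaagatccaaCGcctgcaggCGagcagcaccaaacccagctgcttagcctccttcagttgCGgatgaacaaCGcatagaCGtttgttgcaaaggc
Sorbs2 start 2: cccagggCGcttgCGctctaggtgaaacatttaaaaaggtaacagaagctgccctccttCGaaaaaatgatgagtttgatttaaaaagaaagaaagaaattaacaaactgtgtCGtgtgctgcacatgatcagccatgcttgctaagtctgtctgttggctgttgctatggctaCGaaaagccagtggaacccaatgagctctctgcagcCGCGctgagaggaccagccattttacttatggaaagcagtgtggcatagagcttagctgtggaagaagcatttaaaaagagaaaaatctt
Sorbs2 start 3: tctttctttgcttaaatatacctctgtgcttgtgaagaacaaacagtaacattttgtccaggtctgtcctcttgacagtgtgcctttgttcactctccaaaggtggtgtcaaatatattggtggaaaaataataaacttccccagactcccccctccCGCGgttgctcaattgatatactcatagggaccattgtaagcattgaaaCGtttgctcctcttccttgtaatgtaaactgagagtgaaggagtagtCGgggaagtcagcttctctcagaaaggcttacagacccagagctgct
Pcolce2 start: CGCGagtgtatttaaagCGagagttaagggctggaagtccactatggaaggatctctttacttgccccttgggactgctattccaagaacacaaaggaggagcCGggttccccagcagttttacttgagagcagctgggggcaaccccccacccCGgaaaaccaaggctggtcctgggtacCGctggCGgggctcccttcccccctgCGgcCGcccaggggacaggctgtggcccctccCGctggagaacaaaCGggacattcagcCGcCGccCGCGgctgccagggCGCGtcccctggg
The 3 Sorbs2 windows held 10, 7 and 4 CG dinucleotides, in the order printed, and the Pcolce2 window held 17. Over all 32851 windows of the table the median was 7, and 68.6% of them held fewer than the Pcolce2 window. The letters TATAAA were in none of the 4 windows on either strand, against 13.6% of all windows. This describes the letters in these windows and no site of any factor.

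The values are reads in each row scaled to the spike-in by the authors, called normalized reads below. A ratio is the K36M value divided by the WT value. The interval after it is an exact Clopper-Pearson 95% interval from the reads of both libraries, and it covers counting error only. The 2 H3K36me3 libraries held 11294217 (WT) and 6095048 (K36M) reads in all rows, and the 2 H3K36me2 libraries 1770960 and 915902. All 4999 H3K36me3 rows and all 1691 H3K36me2 rows were lower in K36M, so a member is described by how far it lay from the median of its mark, a log2 ratio of −1.71 for H3K36me3 and −2.07 for H3K36me2, and from the median of its chromosome.

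Each window held 1 long H3K36me3 row that lay wholly inside it, called its main row here and named after the gene. In K36M these 3 rows kept 13.4% (Sorbs2), 15.6% (Scara5) and 14.2% (Pcolce2) of their WT signal. The median H3K36me3 row kept a ratio of 0.305. The 3 rows stood 4th, 12th and 7th from the lowest ratio among 4999. A loss of at least 6-fold was found in these 3 of the 5 H3K36me3 members and in 0.34% of all H3K36me3 rows, and a loss of at least 4-fold in the same 3 rows and in 9.96% of all. As the windows were picked for these ratios, the shares describe the choice. The other 2 H3K36me3 members cross the edges of the Scara5 window.

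**Figure D1:**
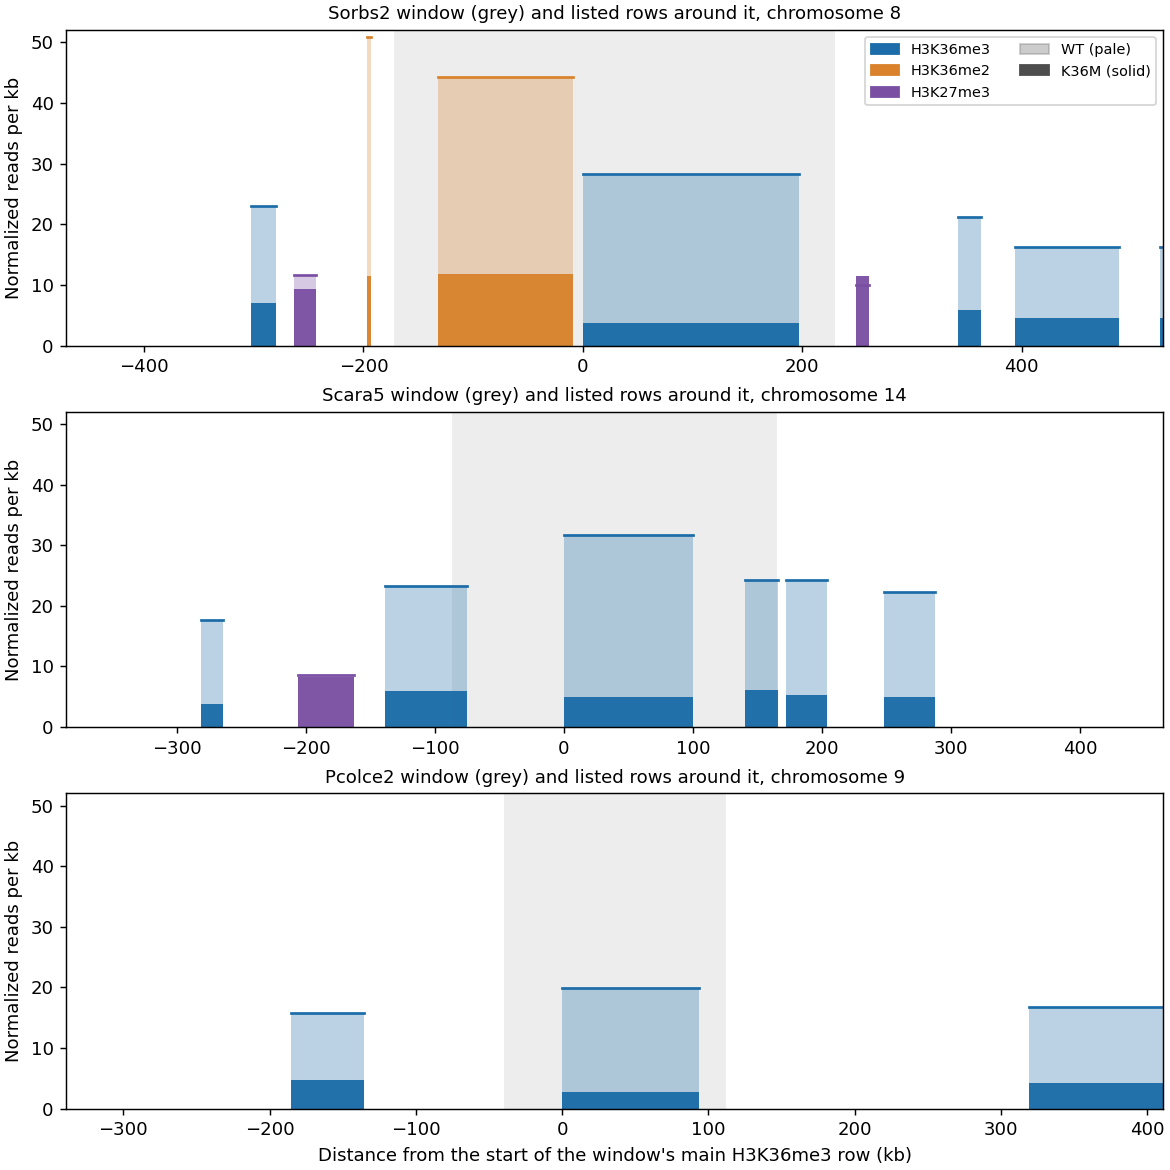
Listed rows in and around the 3 windows (grey), with normalized reads per kb against the distance in kb from the start of each window's main H3K36me3 row; the pale block up to the line is WT and the solid block K36M, coloured by mark. In each window the main H3K36me3 block falls from 28.3, 31.7 or 19.9 reads per kb in WT to 3.80, 4.96 or 2.83 in K36M, and in the Sorbs2 window an H3K36me2 row lies to its left.

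The Sorbs2 H3K36me3 row ran from 46720800 to 46917799 on chromosome 8 (mm9), a length of 197 kb. It went from 5582 normalized reads in WT to 748 in K36M, from 14313 and 3400 reads. The ratio was 0.134 (0.129 to 0.139), a 7.46-fold loss. Its log2 ratio of −2.90 was 1.19 below the mark's median on the log2 scale, a deviation of −1.19, and was the lowest of the 303 H3K36me3 rows of chromosome 8. The median of that chromosome was −1.69 and the next lowest row −2.56. Within 5 Mb of the window, 18 other H3K36me3 rows had log2 ratios from −2.31 to −1.28, so the Sorbs2 row lay outside their range. The nearest listed H3K36me3 rows on either side, 109 kb and 112 kb from the window, had ratios of 0.309 (0.282 to 0.338) and 0.276 (0.249 to 0.305).

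The Sorbs2 window was the only 1 of the 3 with an H3K36me2 row, and H3K36me2 took no part in the choice of the windows. That row ran from 46588400 to 46711799, a length of 123 kb, and ended 9 kb before the H3K36me3 row began, so the marks were listed side by side and not on top of each other. It went from 5459 normalized reads in WT to 1450 in K36M. The ratio was 0.266 (0.253 to 0.278), a 3.77-fold loss, which meets a 2-fold rule, as 97% of all H3K36me2 rows did, but not a 4-fold rule, as 59% did. Its log2 ratio of −1.91 was 0.15 above the mark's median and 0.08 above the −1.99 of the 89 H3K36me2 rows on chromosome 8. With 38.5 normalized reads (the 5th percentile of this mark) added to both values of every row, these deviations turned to −0.13 and −0.19. The row's own log2 ratio was then −1.89, and the medians had moved more than the row. The row thus lay near the middle of its mark, at percentile 69.0. Over the stretch next to it, H3K36me3 stood at percentile 0.08 of its own mark.

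Together the Sorbs2 rows spanned 329 kb, and the Sorbs2 gene is 320 kb long in the GRCm38.p6 annotation. Its starts 2 and 3 lie 120 kb and 154 kb from the first, and the H3K36me2 row was 123 kb long. The lengths come from different builds and are set side by side only. No row was placed on a start. An antisense long noncoding RNA gene of 96.0 kb, Sorbs2os, lies within Sorbs2 in that annotation, and histone signal has no strand, so the row cannot be split between them.

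An H3K36me2 row beside an H3K36me3 row was not particular to Sorbs2. Of 1691 H3K36me2 rows, 167 (9.88%) lay without overlap at most 10 kb from an H3K36me3 row, and in 3 of these pairs both rows were at least 100 kb long. Across the 167 pairs the H3K36me3 log2 ratio minus the H3K36me2 log2 ratio had a median of 0.25, with a range from −0.99 to 1.11. Sorbs2 was the pair at −0.99. H3K36me3 lost more than the H3K36me2 beside it in 30 of the 167 pairs on the spike-in scale, and in 91 when WT and K36M of each mark were brought to equal totals. That setting was added after the data were seen. It put the median at −0.039 and Sorbs2 at −1.28. All pairs move by the same amount in that setting, so Sorbs2 stays the lowest pair by construction. The other 2 pairs of long rows, on chromosomes 16 and 17, had differences of 0.21 and 0.23. As Sorbs2 was picked for a low H3K36me3 ratio, its place in this order is partly fixed by the choice. The marks have separate antibodies and spike-in factors, so the sign of a difference depends on the scaling and the order of the pairs does not.

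**Figure D2:**
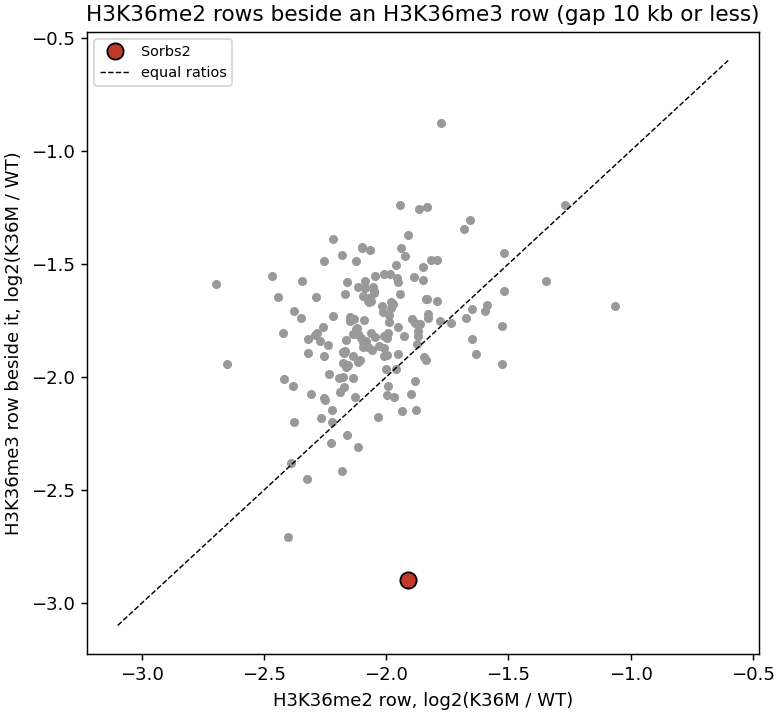
Log2 ratio of K36M over WT in H3K36me2 rows (horizontal) and in the H3K36me3 row at most 10 kb beside each (vertical), 1 point per pair, 167 pairs; the dashed line marks equal ratios. The Sorbs2 pair, at −1.91 and −2.90, lies farthest below the line.

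The Scara5 H3K36me3 row ran from 66285400 to 66385399 on chromosome 14, a length of 100 kb beside 98.4 kb for the gene in the GRCm38.p6 annotation. It went from 3169 normalized reads in WT to 496 in K36M, from 8125 and 2253 reads. The ratio was 0.156 (0.149 to 0.164), a 6.39-fold loss. The log2 ratio of −2.68 deviated by −0.96 from the mark's median and was the lowest of the 188 H3K36me3 rows on chromosome 14, whose median was −1.78 and whose next lowest row was at −2.52. The row had the highest WT density of the 5 H3K36me3 members, 31.7 normalized reads per kb.

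The 2 rows at the edges of the Scara5 window lost less. The left row, from 66146800 to 66210399, went from 1481 normalized reads in WT to 380 in K36M, with a ratio of 0.257 (0.242 to 0.272). Only 10.4 kb of its 63.6 kb lay in the window. The right row, from 66426200 to 66451399, went from 612 to 156 normalized reads, with a ratio of 0.254 (0.232 to 0.278), and 23.8 kb of its 25.2 kb lay in the window. Their counting intervals overlapped each other and lay wholly above that of the Scara5 row between them. They deviated by −0.25 and −0.26 from the mark's median and by −0.18 and −0.19 from that of chromosome 14, at ranks 38 and 34 of 188 from the lowest. Both lay just below the lower quartile of that chromosome, −1.93.

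The spacing of these rows can be set beside the order of genes. On GRCm38.p6, Elp3, which encodes the catalytic subunit of the Elongator complex, is 62.7 kb long and ends 73.3 kb before Scara5, and the left row was 63.6 kb long and ended 75.0 kb before the Scara5 row. Nuggc lies between Elp3 and Scara5 in the annotation, and no H3K36me3 row was listed between the left row and the Scara5 row. On the other side Pbk, a mitotic kinase gene, begins 41.1 kb after Scara5 and is followed by Esco2, a cohesin acetyltransferase gene, over 28.1 kb in all. The right row began 40.8 kb after the Scara5 row and was 25.2 kb long. The builds differ, so no row was given to a neighbouring gene.

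Summed over its 3 rows, the Scara5 window went from 5262 normalized reads in WT to 1032 in K36M over 189 kb, with a ratio of 0.196. With only rows whose midpoint lies in the window, which leaves out the left row, the ratio was 0.172. The lower value of the main row is therefore diluted in a sum over the window. Outside the window, the nearest H3K36me3 rows had ratios of 0.213 (0.186 to 0.244) on the left, 178 kb away, and 0.222 (0.204 to 0.242) on the right, 7.8 kb away. Among 33 other rows within 5 Mb, log2 ratios ran from −2.24 to −1.42, with a median of −1.83, all above the Scara5 row.

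The Pcolce2 H3K36me3 row ran from 95539000 to 95632599 on chromosome 9, a length of 93.6 kb. It went from 1863 normalized reads in WT to 265 in K36M, from 4776 and 1206 reads. The ratio was 0.142 (0.134 to 0.152), a 7.02-fold loss. Its log2 ratio of −2.81 deviated by −1.10 from the mark's median and by −1.01 from the −1.80 of chromosome 9. It was the second lowest of 267 rows there, after a 2.2 kb row of 158 WT and 19 K36M reads at −3.88. The 14 other H3K36me3 rows within 5 Mb ran from −2.45 to −1.55. Their nearest were at ratios of 0.298 (0.277 to 0.321) on the left and 0.253 (0.240 to 0.267) on the right.

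This row is longer than its gene. Pcolce2 is 57.9 kb long on GRCm38.p6, 35.7 kb shorter than the row, and Trpc1, a cation channel gene, begins 9.52 kb after Pcolce2 ends. The table gives 1 value for the whole row, so the share of Pcolce2 in the loss was not measured. The name Pcolce2 for this row holds only as far as the window definition goes.

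Among the 3 main rows the ratios lay close together. The counting intervals of Sorbs2 and Pcolce2 overlapped, at a log2 difference of −0.09, and so did those of Scara5 and Pcolce2, at 0.14. Those of Sorbs2 and Scara5 did not overlap, and their folds of loss differed by a factor of 1.17. The error between cultures and precipitations was not measured, so an order among the 3 cannot be read from these values. In the list of ratios, Sorbs2 stood between a 36.4 kb row at 0.126 and an 11.2 kb row at 0.135. Pcolce2 stood between a 1.4 kb row at 0.136, of only 79 WT and 19 K36M reads, and a 23 kb row at 0.142. Scara5 stood between a 48.4 kb row at 0.153 and a 166 kb row at 0.157. The ratios thus run on without a gap on either side of each member.

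**Figure D3:**
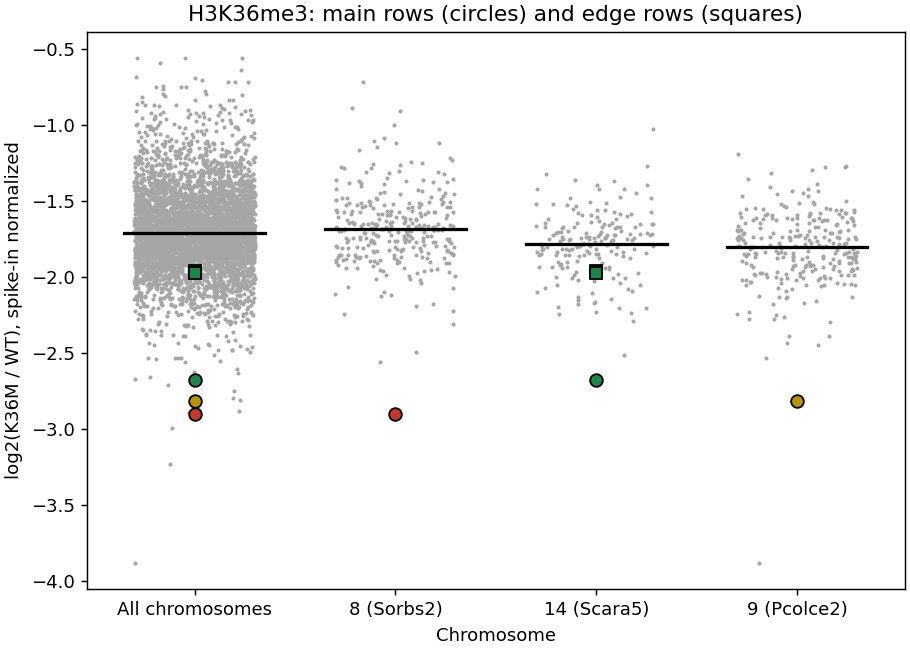
Log2 ratio of K36M over WT for H3K36me3 rows of all chromosomes and of chromosomes 8, 14 and 9 (grey points, 1 per row, spread sideways at random), with the median as a bar, the 3 main rows as circles and the Scara5 edge rows as squares. Sorbs2 at −2.90 and Scara5 at −2.68 are the lowest rows of their chromosomes, and the squares lie at −1.96 and −1.97.

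The main rows were long, and low ratios were found at very different lengths. Of the 17 H3K36me3 rows that lost at least 6-fold, 4 were shorter than 3 kb, as were 94 of all 4999, and 6 were at least 90 kb long, as were 606 of all. The 3 main rows were the lowest 3 of those 606. The 4 rows shorter than 3 kb held only 19 to 39 K36M reads, against 1206 to 3400 in the main rows. Counting error is thus larger in those short rows. Sorbs2 and Scara5 were the lowest 2 of the 464 rows of at least 100 kb, whose median log2 ratio was −1.76 and whose quartiles were −1.89 and −1.65. The bound of 90 kb was set after the lengths of the members were seen. Against the fifth of rows with the longest lengths, the deviations were −1.14 for Sorbs2, −0.92 for Scara5 and −1.05 for Pcolce2.

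**Figure D4:**
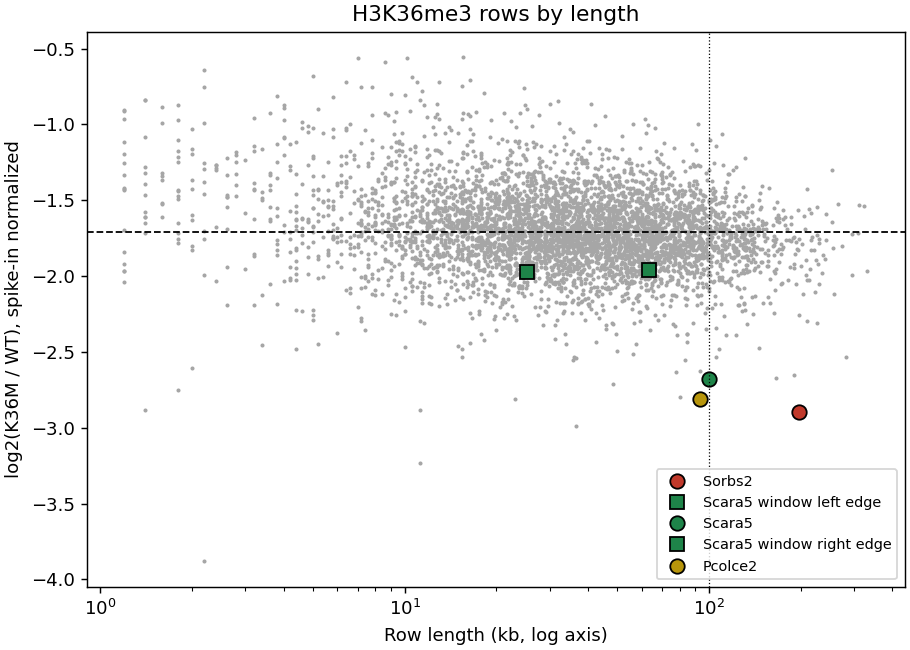
Log2 ratio of K36M over WT against row length in kb (log axis) for all 4999 H3K36me3 rows (grey), with the 3 main rows as circles, the Scara5 edge rows as squares, a dashed line at the median of −1.71 and a dotted line at 100 kb. The circles lie at 93.6 to 197 kb, below all other rows of 90 kb or more, while the grey rows below Sorbs2 are at most 36.4 kb long.

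Per kb, the main rows went from the upper part of the list in WT to the lower part in K36M. Sorbs2 had 28.3 normalized reads per kb of H3K36me3 in WT, at percentile 94.6 of all rows, and 3.80 in K36M, at percentile 7.30. Scara5 had 31.7 in WT, at percentile 97.7, and 4.96 in K36M, at percentile 31.2. Pcolce2 began nearer the middle, with 19.9 at percentile 59.8, and had 2.83 in K36M, at percentile 0.46. The median row had 18.8 and 5.74. All 3 main rows were thus above the median in WT and below it in K36M. The ranks use the same values as the ratios that chose the windows, and they add no separate support.

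**Figure D5:**
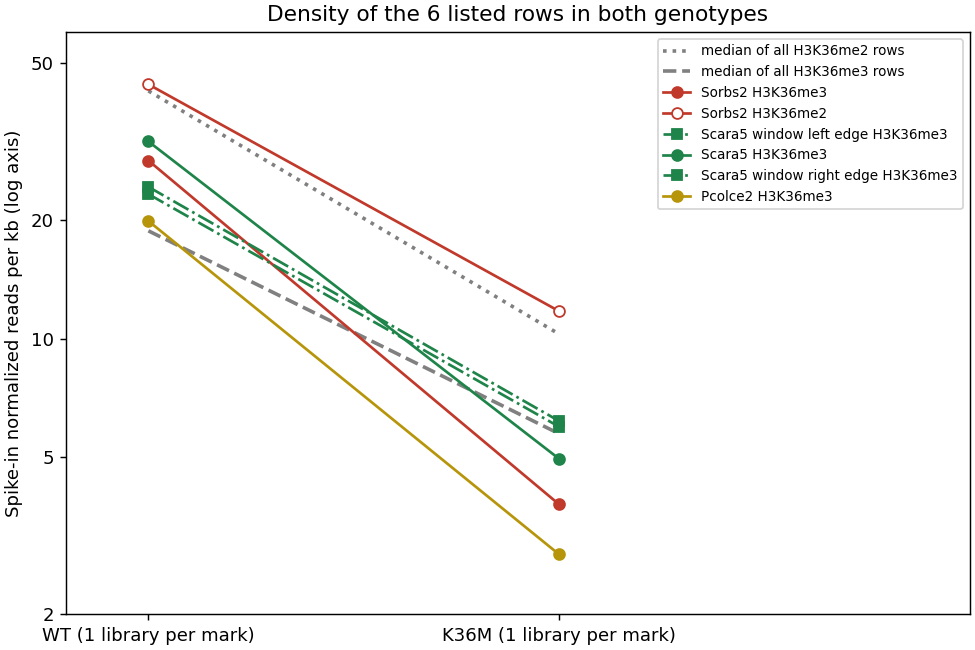
Normalized reads per kb (log axis) of the 6 rows in the WT and K36M libraries, 1 library per mark and genotype; filled circles are main H3K36me3 rows, squares the Scara5 edge rows, the open circle the Sorbs2 H3K36me2 row, and grey lines the medians of all rows. The 3 main rows cross the dashed H3K36me3 median, which runs from 18.8 to 5.74, while the edge rows stay above it.

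The edge rows and the H3K36me2 row changed place less. The edge rows had 23.3 and 24.3 normalized reads per kb in WT, at percentiles 81.6 and 85.5, and 5.98 and 6.18 in K36M, at percentiles 55.1 and 59.2. The Sorbs2 H3K36me2 row had 44.2 per kb in WT, at percentile 61.3 of its mark, and 11.7 in K36M, at percentile 69.0. Percentiles within a library do not depend on its spike-in factor.

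No H3K27me3 row was listed in any window, and the tables show only listed regions, so H3K27me3 inside the windows was not measured. The nearest H3K27me3 rows lay 72.4 kb to the left and 19.4 kb to the right of the Sorbs2 window. The left row went from 233 normalized reads in WT to 185 in K36M and the right row from 124 to 143, with ratios of 0.794 (0.723 to 0.870) and 1.15 (1.03 to 1.29). With counting error only, the sides of Sorbs2 differed in direction. The intervals leave out rounding of the factors, up to 2.78% (WT) and 1.92% (K36M) for H3K27me3. As the right row's lower bound is 1.03, its side of equality is not settled. The median of 67 H3K27me3 rows on chromosome 8 was a log2 ratio of −0.01, with quartiles of −0.28 and 0.20. The row 77.4 kb to the left of the Scara5 window went from 372 normalized reads in WT to 357 in K36M, with a ratio of 0.961 (0.897 to 1.03), an interval that holds equality. So does that of the row 455 kb to the right, at 1.04 (0.864 to 1.24). Around Pcolce2 the nearest H3K27me3 rows were 24368 kb to the left and 3186 kb to the right, at ratios of 0.792 (0.750 to 0.836) and 0.934 (0.870 to 1.00).

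No H3K36me2 row was listed near the Scara5 or Pcolce2 window, and H3K36me2 outside listed rows was not measured. Chromosome 14 held 65 listed H3K36me2 rows in all and chromosome 9 held 36, so distance to such a row is no trait of these genes alone. The nearest listed H3K36me2 rows were 2232 kb and 1350 kb from the Scara5 window, with ratios of 0.236 (0.194 to 0.285) and 0.222 (0.197 to 0.249). Those beside the Pcolce2 window were 17380 kb and 6892 kb away, with ratios of 0.233 (0.197 to 0.275) and 0.247 (0.219 to 0.277). Near Sorbs2, a 3.4 kb H3K36me2 row 22.6 kb left of the window had a ratio of 0.226 (0.169 to 0.299), and a row 557 kb to the right had 0.219 (0.189 to 0.254). These 6 rows deviated from the mark's median by −0.12 to 0.05 on the log2 scale. Against the H3K36me2 medians of their own chromosomes, the Sorbs2 rows deviated by −0.15 and −0.20, the Scara5 rows by 0.09 and 0.0038 and the Pcolce2 rows by 0.17 and 0.25. Most of these rows are too far away to describe the genes, and the Scara5 and Pcolce2 windows have no H3K36me2 value.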

How the data were processed

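Rows were taken from 3 deposited peak tables, whose values are a signal: reads per peak normalized by the authors to the Drosophila spike-in (Rx-normalized), per the file headers. The submitters' processing notes name Bowtie 1.0.0 and, as builds, mm9 and dm6. How and in which library peaks were called, and how the factor was computed, is not given in the sources used here. Row starts and ends lie on a grid of 200 bp and are printed as deposited. All values of a column are whole multiples of 1 step (0.39 and 0.22 for H3K36me3 in WT and K36M, 1.08 and 0.52 for H3K36me2), which was read as the value of 1 read. Reads from these steps gave the exact Clopper-Pearson 95% intervals, which leave out error between cultures. Gene names, lengths and order come from RefSeq on GRCm38.p6, and no coordinate was moved between builds. The 2 input libraries were not analysed here. Every member row, the nearest row of each mark on each side of a window, and the rows next to a member in the order of H3K36me3 ratios are the ones named, with other rows named after their values were seen. The members and lists were chosen with earlier results of these data known. Alternatives were a pseudocount, other scalings, other reference sets and other overlap rules. Calculations were tested on simulated data. Python 3.11.15, numpy 2.4.6, pandas 2.3.3, scipy 1.17.1 and matplotlib 3.10.9 were used.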

Additional observations from a re-analysis of the deposited data

How the results depend on the processing

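The sizes depend on the factors from the spike-in. Scaling WT and K36M of each mark to equal totals moved all H3K36me3 rows by 1.72 and all H3K36me2 rows by 2.01 on the log2 scale, and gave log2 ratios of −1.18 (Sorbs2), −0.96 (Scara5) and −1.10 (Pcolce2). The Sorbs2 H3K36me2 row turned to 0.093 by construction of that scaling, while deviations from the medians stayed as they were. H3K36me3 then lost more than H3K36me2 in 91 pairs of neighbouring rows instead of 30. Ratios of summed signal became 0.440 for Sorbs2, 0.644 for the Scara5 window, 0.468 for Pcolce2 and 1.07 for Sorbs2 H3K36me2. In reads without factors the log2 ratios were −2.07, −1.85 and −1.99, and −0.86 for H3K36me2. With the pseudocount, the 3 H3K36me3 ratios were −2.81, −2.55 and −2.58. The deviations from the mark's median were then −1.36 for Sorbs2 and −1.10 for Scara5, and those from the chromosome's median −1.37 and −0.99. Both deviations of the Sorbs2 H3K36me2 row turned, to −0.13 and −0.19. That row's own log2 ratio moved only from −1.91 to −1.89, and the medians, taken again with the pseudocount in every row, moved more. Against rows of like WT density (1 of 5 equal classes) Sorbs2 deviated by −1.24, and its H3K36me2 row by 0.28 against rows within 5 Mb. With rows by midpoint, or with at least 50% inside, the Scara5 sum was at 0.172. Windows widened by 100 kb held 2 H3K36me2 and 2 H3K27me3 rows for Sorbs2, 5 H3K36me3 and 1 H3K27me3 rows for Scara5, and 2 H3K36me3 rows for Pcolce2. Of all alternatives, 77 stayed within the counting interval or within 1.5 times a count, 34 moved beyond it and 4 changed sign. The 77 include the deviations from the mark's median at equal totals, which that scaling cannot change. Rounded factors, added as the pairs' scaling was after the data were seen, kept each member's ratio within its counting interval. They were not tried on rows outside the windows. No paired analysis was possible because each group has 1 library, and no replicate could be left out.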

Other observations

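The other long H3K36me3 rows that lost at least 6-fold were spread over chromosomes 3, 12 and 15. They were chosen after their values were seen, and no gene name was given to them. A 190 kb row on chromosome 3, from 113734600 to 113924199, went from 2597 normalized reads in WT to 413 in K36M, a 6.30-fold loss, at a WT density of 13.7 normalized reads per kb, below the median row. A 166 kb row on chromosome 15, from 42806800 to 42973199, was 6.37-fold lower and a 93.2 kb row on chromosome 12, from 96932800 to 97025999, was 6.17-fold lower. Of the 17 rows with such a loss, 6 lay on chromosome 15, as did 279 of all 4999 H3K36me3 rows (5.58%). Most of those 6 lay close together, between 40926200 and 43002599, and were not spread over the chromosome.

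A second of the 17 rows also lay beside H3K36me2. Of all 4999 H3K36me3 rows, 164 were in the pairs described above, and the share among the 17 was not tested. The 48.4 kb H3K36me3 row on chromosome 4, from 80558000 to 80606399, went from 982 to 150 normalized reads, and a 42 kb H3K36me2 row began 7.6 kb after it. Its H3K36me3 log2 ratio was −2.71 and that of the H3K36me2 row −2.40. The difference of −0.31 had the same sign as at Sorbs2, but here the H3K36me2 row too was below the median of its mark. As the 17 rows were picked for low H3K36me3 ratios, that sign is partly fixed by the choice.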
